A study of Mus musculus with 4 samples.

Results

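The miRNAs described here are miR-132, miR-212, miR-128, miR-129 and miR-138, a set best known from neurons, as they were counted in extracellular vesicles shed by a muscle cell line. The members are the rows of miR-132-3p (MIMAT0000144 in the table), miR-212-3p (MIMAT0000659), miR-128-3p (MIMAT0000140), miR-129-5p (MIMAT0000209) and miR-138-5p (MIMAT0000150), all gene copies included, together with the other arm of the same hairpins. That gave 16 of the 2110 rows of the deposited table, or 13 of its 1966 mature IDs, on 8 hairpins. The other arms start 35 to 47 bases from their partner, inside the limit of 60 bases, and the nearest row on the same strand that is no member starts 19897 bases from one. All 4 libraries came from C2C12, an established line of mouse myoblasts that descends from 1 clone, with the genotype label WT and a culture medium with 10% fetal bovine serum. The damaged group, 2 libraries, was treated with hydrogen peroxide, an oxidant, and the control group, 2 libraries, carries WT as its treatment label. The sources used here give neither dose nor length of exposure. The comparison asks how the vesicle cargo of damaged muscle cells differs from that of healthy ones.

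A miRNA is cut from the stem of a hairpin transcript as a duplex, and 1 strand of it, from the 5p or the 3p arm, usually stays in the silencing complex, where bases 2 to 8, the seed, pair with target mRNAs. miR-132 and miR-212 come from a shared primary transcript that CREB, a transcription factor driven by neuronal activity, induces in neurons, and they act on dendrite growth and synapse function. miR-128 is enriched in brain, where it limits neuronal excitability, and is also made in skeletal muscle. miR-129 and miR-138 act on synapses too, miR-138 through the size of dendritic spines.

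The mature sequences on which the values below rest are printed 5′ to 3′ with the seed in capitals, as RefSeq gives them for GRCm38.p6. Of the 16 member rows, 15 matched a RefSeq entry by position.

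miR-132-3p: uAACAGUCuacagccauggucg
miR-212-3p: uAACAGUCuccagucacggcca
miR-132-5p: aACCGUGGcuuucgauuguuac
miR-212-5p: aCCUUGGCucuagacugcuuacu
miR-128-3p: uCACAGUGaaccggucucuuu
miR-129-5p: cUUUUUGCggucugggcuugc
miR-138-5p: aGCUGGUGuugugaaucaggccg

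miR-132-3p and miR-212-3p shared the seed AACAGUC and were identical over their first 9 bases and at 17 of 22 positions. No other mature ID of the table with a known sequence carried that seed. The seeds of miR-132-5p, miR-212-5p, miR-129-5p and miR-138-5p were each found in 1 mature ID, and that of miR-128-3p also in miR-6539-5p.

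The miR-132 and miR-212 hairpins lie on the plus strand of chromosome 11 (mm10, GRCm38) in an intron of the noncoding transcript 1700016P03Rik, with 221 bases between the mature miR-212-3p and miR-132-5p. They are shown with the counted arms in capitals, since they differ in the arm that held more reads.

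Mir212, chr11:75173388-75173478: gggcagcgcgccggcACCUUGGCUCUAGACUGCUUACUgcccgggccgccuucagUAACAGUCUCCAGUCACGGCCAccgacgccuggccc
Mir132, chr11:75173682-75173747: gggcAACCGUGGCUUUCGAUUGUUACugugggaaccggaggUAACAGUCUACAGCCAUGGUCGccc

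Library totals were 4577668 and 7638663 counts in WT and 6901394 and 7350345 counts in damaged. Together the members held 0.0835% (0.0809 to 0.0862, exact 95% interval) and 0.0991% (0.0968 to 0.101) of the counts of WT replicates 1 and 2, and 0.144% (0.141 to 0.147) and 0.184% (0.181 to 0.187) of those of damaged replicates 1 and 2. The members were thus a small part of the cargo in every library, and their summed share was higher in both damaged libraries than in both WT libraries. In CPM, the count relative to a library total that was scaled between libraries by the TMM method, the sum averaged 920 ± 104 over the WT libraries and 1624 ± 249 over the damaged libraries (SD, n = 2), a ratio of 1.76. An exact permutation test of 2 libraries against 2 cannot give a two-sided p below 0.33, so no test is given for this sum. In RNA from the vesicles of a whole culture, more vesicles that carry a miRNA and more copies per vesicle cannot be told apart. Separate cultures for the replicates are not stated in the labels, and the p-values below measure only how much these libraries vary, which may be technical.

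Of the 16 member rows, 13 had at least 1 count and 11 passed the filter on low counts. By edgeR's quasi-likelihood test with Benjamini-Hochberg adjustment over all 536 tested rows, 3 of the 11 were higher in damaged at an adjusted p under 0.05: miR-212-3p, miR-132-5p and the Mir128-1 row of miR-128-3p. None was lower, and 8 did not pass. Over all tested rows, 22 were called higher (4.1%) and 29 lower (5.41%), 51 in all (9.51%). The median log2 fold change was 0.64 over the 11 rows and 0.02 over all 536. At an unadjusted p under 0.05, 6 of the 11 rows were higher, against 73 of 536 (13.6%). In 7 of the 11 rows both damaged libraries lay above both WT libraries, which held for 156 of the 536 rows (29.1%). The 11 rows are not separate measures. miR-128-3p and miR-138-5p enter by 2 rows each, and 4 rows come from the locus of miR-132 and miR-212. With identical copies summed, 5 of 9 mature IDs had an unadjusted edgeR p under 0.05 in either direction, against 148 of 483. Leaving out any 1 of the 4 libraries ended the calls of all 3 rows in edgeR, with 3 to 6 member rows still at an unadjusted p under 0.05. Over all rows, 1.88% were called higher without damaged replicate 2, and the other 3 fits called none (0%), with 103 to 144 rows at an unadjusted p under 0.05.

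The count of member calls varied with the setting, as did the share of all rows called higher. With RLE scaling, with library totals only and with upper-quartile scaling, 3 member rows were called, against 4.85%, 4.85% and 5.41% of all rows called higher. Robust edgeR also called 3 (4.48% of all rows), as did edgeR with a correction for GC content (4.29%). Without a filter 6 of 13 member rows were called (6.29%), and among rows of at least 10 CPM in 2 libraries 4 of 8 (12.6%). DESeq2 called 5 of 11 (8.4%) and limma-voom 4 of 11 (6.53%). With identical copies summed, 2 of 9 mature IDs were called, miR-212-3p and miR-132-5p, against 4.35% of all.

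**Figure D1:**
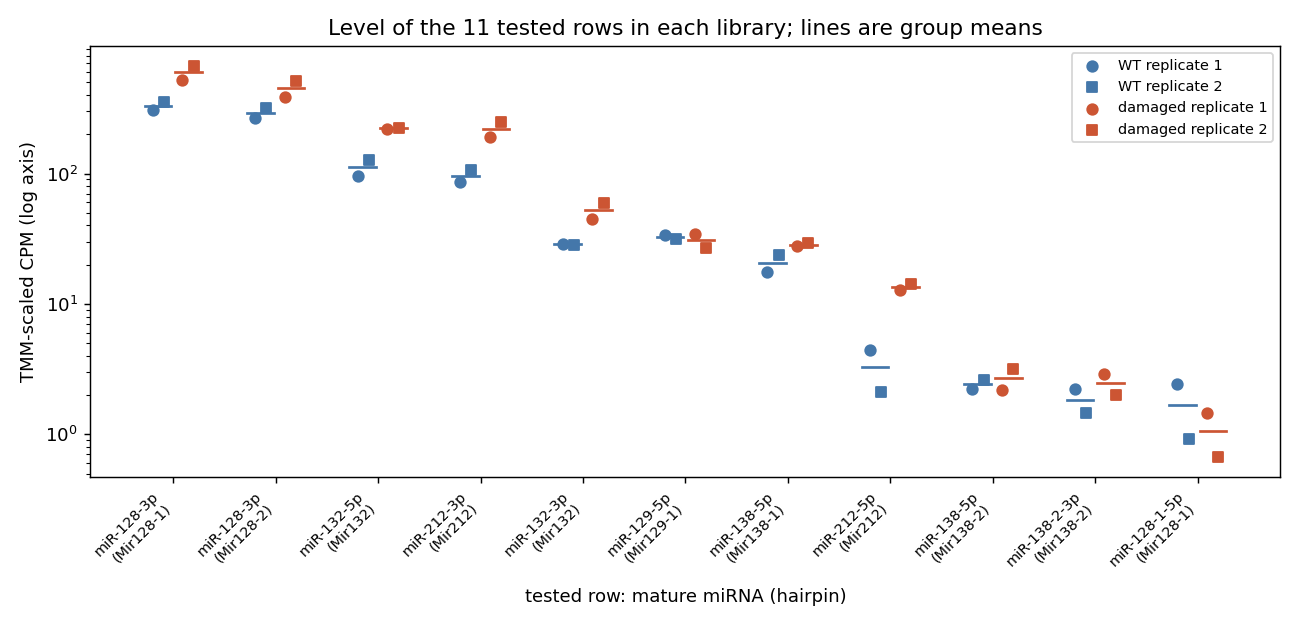
TMM-scaled CPM (log axis) of the 11 tested rows in each of the 4 libraries, with lines at the group means. The rows of miR-128-3p, miR-132, miR-212 and the Mir138-1 row of miR-138-5p have both damaged libraries above both WT libraries, while miR-129-5p, the Mir138-2 rows and miR-128-1-5p overlap.

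miR-212-3p, which shares its seed with miR-132-3p, was measured at 85.9 and 106 CPM in the WT libraries and at 190 and 248 CPM in the damaged libraries. Both damaged libraries were above both WT libraries, and the gap between the groups was wider than the spread within either. The group means were 95.9 ± 14.2 and 219 ± 41.0 CPM (SD, n = 2), and it rose by 1.19 ± 0.22 on the log2 scale (SE, edgeR adjusted p = 0.0335). Without 1 library, its log2 fold change lay between 0.97 and 1.38 and its adjusted p between 0.0951 and 0.222.

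miR-132-5p, from the arm of Mir132 that is usually called the passenger strand, stood at 96.1 and 127 CPM in WT and at 220 and 224 CPM in damaged. The damaged libraries were nearly equal and above both WT libraries. With means of 111 ± 21.7 and 222 ± 2.33 CPM (SD, n = 2), it rose by 0.99 ± 0.20 on the log2 scale (SE, edgeR adjusted p = 0.0385). Without 1 library, its log2 fold change lay between 0.73 and 1.23 and its adjusted p between 0.106 and 0.222.

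The partner arms of the same locus pointed the same way without passing. miR-132-3p, the arm studied most in neurons, had 29.0 and 28.2 CPM in WT and 44.9 and 59.7 CPM in damaged, with a log2 fold change of 0.87 ± 0.25 (SE, edgeR adjusted p = 0.0800). Its groups did not overlap. miR-212-5p had 20 and 16 reads in WT and 87 and 107 reads in damaged, or 4.43, 2.10, 12.7 and 14.2 CPM in that order. This was the widest fold among the 11 rows, 4.20, with a log2 fold change of 2.07 ± 0.52 (SE, edgeR adjusted p = 0.0627). Few WT reads stand behind it. DESeq2 (adjusted p = 0.0416) and limma-voom (0.0405) put it past the threshold, and over the settings on 4 libraries its adjusted p ran from 0.00580 to 0.0740. All 4 rows of the miR-132 and miR-212 locus thus had non-overlapping groups with damaged higher, and 2 of the 4 passed. Over all 536 tested rows, 156 (29.1%) had both damaged libraries above both WT libraries, and 22 (4.1%) were called higher. The 4 rows share a locus and are not separate measures.

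The arm with more reads was not the same in the 2 hairpins of the locus. From Mir132, the 5p arm took 76.8% (73.1 to 80.2, exact 95% interval) and 81.8% (79.5 to 84.0) of the reads of both arms in WT, and 83.1% (81.3 to 84.8) and 78.9% (77.1 to 80.6) in damaged. From Mir212, the 5p arm took 4.90% (3.02 to 7.47), 1.94% (1.12 to 3.14), 6.25% (5.04 to 7.66) and 5.42% (4.47 to 6.52) in the same order. The 5p arm thus led at Mir132 and the 3p arm at Mir212 in every library. Of the 151 hairpins with both arms past the filter, the 5p arm held more reads in 87.

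The groups of the Mir132 share overlapped. Those of the Mir212 share did not, with 20 and 16 reads of the 5p arm in WT. How many of the 151 hairpins had shares that did not overlap was not counted. Tested as the log2 ratio of 5p to 3p reads with limma over the 151 hairpins, the change from WT to damaged was 0.15 ± 0.45 (SE) for Mir132 (adjusted p = 0.937) and 0.92 ± 0.69 (SE) for Mir212 (adjusted p = 0.567). limma called none of the 151 ratios (0%), with 20 at an unadjusted p under 0.05. Without WT replicate 1 the Mir212 change was 1.60 and without WT replicate 2 it was 0.24. These standard errors leave room for sizeable shifts in either ratio. Of the reads of the 2 arms that share the seed AACAGUC, miR-132-3p made up 25.2% (21.6 to 29.2) and 21.0% (18.6 to 23.7) in WT, and 19.1% (17.2 to 21.1) and 19.4% (17.8 to 21.1) in damaged. miR-212-3p therefore held most of the reads with this seed in all 4 libraries. Whether its share of the molecules was alike was not tested.

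**Figure D2:**
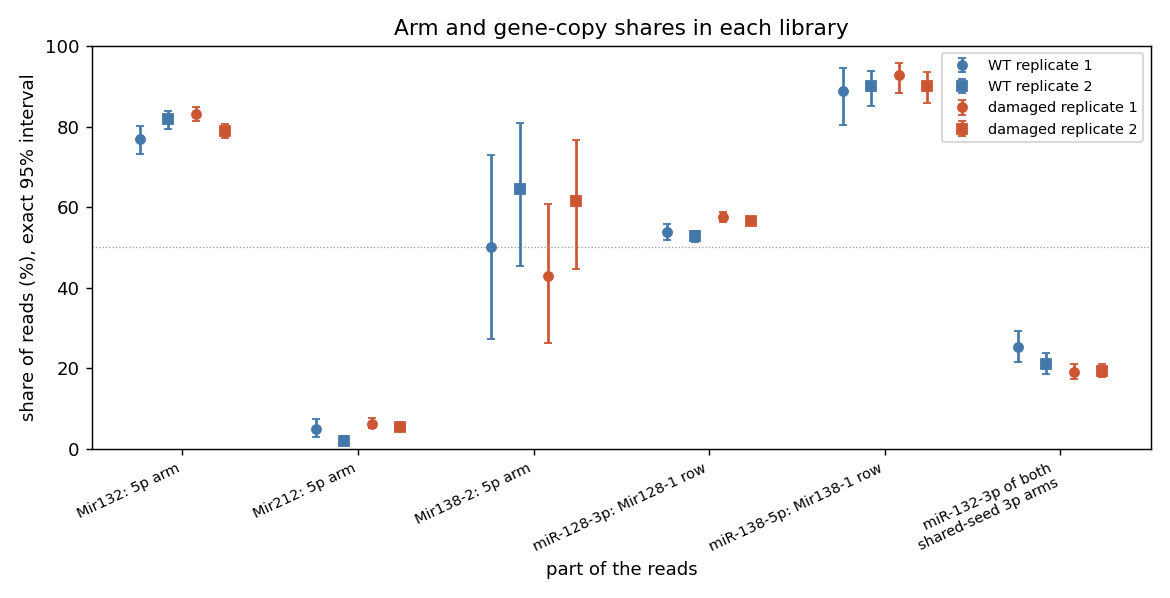
Share of reads in percent, with exact 95% intervals for counting error, for the 5p arm of 3 hairpins, for 1 of the 2 gene copies of miR-128-3p and miR-138-5p, and for miR-132-3p among the 2 arms that share its seed, in each library. The Mir132 reads come mostly from the 5p arm and the Mir212 reads from the 3p arm, and the Mir128-1 row holds 52.8% to 57.4% of the miR-128-3p reads.

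miR-128-3p was the most abundant member. Its sequence is made from Mir128-1, in an intron of R3hdm1 on chromosome 1, and from Mir128-2, in an intron of Arpp21 on chromosome 9, so that reads of the mature sequence cannot be assigned to a gene. The Mir128-1 row had 308 and 353 CPM in WT and 523 and 673 CPM in damaged, and rose with a log2 fold change of 0.85 ± 0.18 (SE, edgeR adjusted p = 0.0460). The Mir128-2 row had 264 and 316 CPM in WT and 388 and 517 CPM in damaged, with a log2 fold change of 0.64 ± 0.20 (SE, edgeR adjusted p = 0.0948). In both rows the damaged libraries were above the WT libraries.

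Summed over the copies, miR-128-3p stood at 573 and 669 CPM in WT and at 911 and 1190 CPM in damaged. The sum had a log2 fold change of 0.78 ± 0.20 (SE) and did not pass (edgeR adjusted p = 0.0673). The Mir128-2 row passed in 3 of the 13 settings on 4 libraries, DESeq2 among them (adjusted p = 0.0269). With copies summed, the call of the Mir128-1 row was thus lost, at a log2 fold change close to the 0.85 of that row. With upper-quartile scaling it was lost as well (adjusted p = 0.0553), and without 1 library its log2 fold change lay between 0.65 and 1.00 with an adjusted p between 0.111 and 0.304.

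The copies differ right after the mature sequence, which is printed here in lower case with the next 6 bases of each hairpin in capitals.

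Mir128-1: ucacagugaaccggucucuuuUUCAGC
Mir128-2: ucacagugaaccggucucuuuCCCUAC
Mir138-1: agcugguguugugaaucaggccgUUGCCA
Mir138-2: agcugguguugugaaucaggccgACGAGC

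The Mir128-1 row held 53.8% (exact 95% interval 51.9 to 55.8) and 52.8% (51.4 to 54.2) of the miR-128-3p reads in WT, and 57.4% (56.2 to 58.7) and 56.6% (55.5 to 57.6) in damaged. The mean share went from 53.3% ± 0.755 to 57.0% ± 0.605 (SD, n = 2), a shift of 3.69 points. Among 27 mature IDs with 2 rows and at least 1000 counts, this shift ranked second, with a median of 0.420 points and a maximum of 4.22 points for miR-19b-3p. It was noticed after the values were seen and is given without a test. Which reads made up the excess of the Mir128-1 row cannot be seen in a table of counts.

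The other arms of miR-128 were scarce. miR-128-1-5p had 11, 7, 10 and 5 reads in WT replicates 1 and 2 and damaged replicates 1 and 2. Its groups overlapped, and its log2 fold change was -0.63 ± 1.08 (SE, edgeR adjusted p = 0.778). The log2 ratio of 5p to 3p reads of Mir128-1 changed by -1.43 ± 0.90 (SE, limma adjusted p = 0.519). miR-128-2-5p had 8 reads in damaged replicate 2 and none elsewhere. A count of 0 allows up to 3 reads per library, or 0.393 to 0.655 CPM before TMM scaling.

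miR-129-5p, which acts on excitability in neurons, did not differ detectably between the groups. Its counted row, Mir129-1 in an exon of the noncoding gene Gm3294 on chromosome 6, had 33.9 and 31.6 CPM in WT and 34.6 and 26.7 CPM in damaged. The groups overlapped, with a log2 fold change of -0.10 ± 0.26 (SE, edgeR adjusted p = 0.872). The rows of the second copy, miR-129-5p and miR-129-2-3p of Mir129-2 on chromosome 2, had 0 counts in every library. Both share bases with an entry of Mir129b on the opposite strand. Of the 106 rows of the table that share bases in this way 105 had 0 counts, and the zeros at Mir129-2 are thus no measure of its level. The level of miR-129-5p given here may then be a part of the whole. miR-129-1-3p had 0 and 11 reads in WT and 1 and 7 reads in damaged and did not pass the filter.

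miR-138-5p is made from Mir138-1 on chromosome 9, in an exon of the pseudogene Gm47135, and Mir138-2 on chromosome 8, in an exon of the noncoding gene C78859. The Mir138-1 row had 17.5 and 23.6 CPM in WT and 27.7 and 29.3 CPM in damaged. The groups did not overlap, but at 0.46 ± 0.28 on the log2 scale (SE) the row missed the threshold (edgeR adjusted p = 0.331). The Mir138-2 row had 10, 20, 15 and 24 reads in WT replicates 1 and 2 and damaged replicates 1 and 2, and its groups overlapped (log2 fold change 0.15 ± 0.76, SE, edgeR adjusted p = 0.938). The Mir138-1 row held 88.8% to 92.7% of the miR-138-5p reads over the 4 libraries, against 52.8% to 57.4% for the Mir128-1 row of miR-128-3p. Of the partner arms, miR-138-2-3p had 10 to 20 reads in every library (edgeR adjusted p = 0.820), and miR-138-1-3p had none. The log2 ratio of 5p to 3p reads of Mir138-2 changed by -0.29 ± 1.13 (SE, limma adjusted p = 0.945).

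The order of levels changed little between the groups. The mature entries are 21 to 23 bases long, so their CPM need no length term. Whether the libraries recovered different sequences alike was not tested, so the order given here is one of reads. In WT, summed over copies, miR-128-3p led at 621 ± 67.8 CPM, ahead of miR-132-5p at 111 ± 21.7 and miR-212-3p at 95.9 ± 14.2, which differed by less than the SD of the former. Below them came miR-129-5p at 32.8 ± 1.58, miR-132-3p at 28.6 ± 0.548, miR-138-5p at 23.0 ± 4.64 and miR-212-5p at 3.27 ± 1.65 CPM (SD, n = 2). In damaged, miR-128-3p led at 1051 ± 198 CPM, and miR-132-5p and miR-212-3p were again within their spread. miR-132-3p, at 52.3 ± 10.5, then stood above miR-129-5p at 30.7 ± 5.54 and miR-138-5p at 31.2 ± 1.80 CPM, which did not differ beyond their spread (SD, n = 2). The miR-129-5p level rests on its Mir129-1 row alone, since the Mir129-2 row was not measured. The place of miR-129-5p in both orders may therefore be too low. Whether miR-132-3p and miR-129-5p responded differently was not tested.

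**Figure D3:**
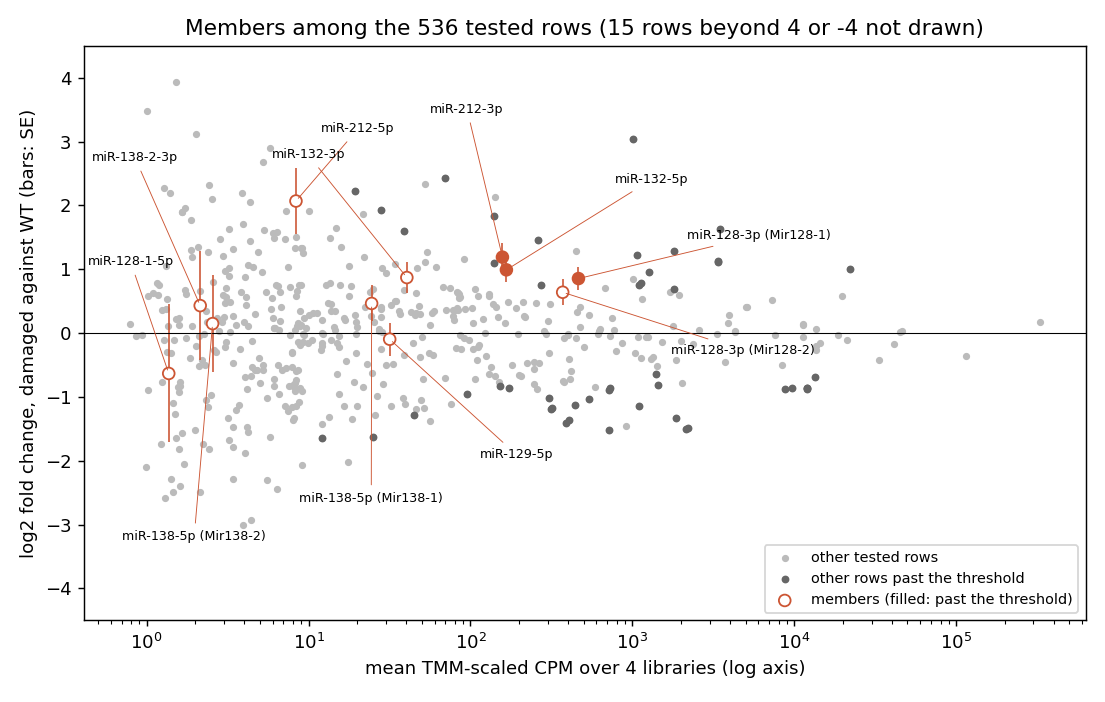
Log2 fold change of damaged against WT (bars: SE for the members) over mean TMM-scaled CPM (log axis) for the 536 tested rows, without 15 rows beyond 4 or -4. The members are circled and filled where they passed the threshold; 9 of the 11 lie above 0, and the 2 below 0 are miR-129-5p and miR-128-1-5p.

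Among other miRNAs known from neurons, no tested row was called higher, against 4.1% of all tested rows. A list of 14 such miRNAs, among them miR-9, miR-124, miR-137, miR-153 and miR-218, covered 42 rows, of which 9 passed the filter. Of the 42 rows 25 were at 0, and 13 of these share bases with an opposite-strand entry, so those 13 were not measured. With only 9 tested rows, the lack of higher calls cannot be told apart from the 4.1% over all rows. Of these 9 rows, 2 were called lower, against 5.41% of all tested rows. Both were rows of miR-218-5p, which targets Robo receptors and is also made outside neurons. They are copies of 1 mature sequence and stand for 1 miRNA. They had log2 fold changes of -0.89 and -0.86 (edgeR adjusted p = 0.0309 and 0.0335), and were the most abundant rows of the list. The median over the 9 rows was -0.58, with miR-218-5p and miR-135a-5p entering by 2 rows each. miR-135b-5p, at 4.33 and 12.5 CPM on average, had a log2 fold change of 1.51 (edgeR adjusted p = 0.0808), and is named after its values were seen.

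The 8 neural markers ranged from 0 reads to 33.0 CPM. miR-124-3p, the most abundant miRNA of neurons, had 1 read in WT replicate 1 and none in the other libraries over its 3 rows, none of which shares bases with an opposite-strand entry. miR-137-3p had 1 read, in damaged replicate 1. miR-9-5p, miR-9-3p, miR-219a-5p and miR-338-3p were at 0 but do share such bases, so their zeros say nothing. miR-153-3p, at 14.7 to 29.2 CPM, and miR-383-5p, at 9.31 to 33.0 CPM, were well above the floor. The markers summed to 62.4 and 37.2 CPM in WT and 40.4 and 25.5 CPM in damaged, and the groups overlapped. The 9 muscle markers, led by miR-206-3p, took 29.6% and 33.6% of counts in WT and 35.7% and 38.3% in damaged. Of their 11 rows, 3 were at 0 but share bases with an opposite-strand entry, so they were not measured. These were the rows of miR-486a-5p and miR-486b-5p and the Mir1a-2 row of miR-1a-3p. Of the 8 tested rows of muscle markers, 3 were called higher, against 4.1% of all tested rows. They were the row of miR-133b-3p and both rows of miR-133a-3p, which are copies of the same mature sequence. miR-206-3p was not called (edgeR adjusted p = 0.334). Markers of blood cells and liver, which serum also carries, summed to 1745 and 1526 CPM in WT and 1557 and 1450 CPM in damaged, nearly all of it miR-451a of red blood cells at 1386 to 1684 CPM. None of the 5 tested rows of that list was called by edgeR, 2 had an unadjusted p under 0.05, and their median log2 fold change was 0.50. Those 2 were scarce and higher in damaged: miR-144-3p had 0 reads in both WT libraries and 12 and 14 in damaged, and miR-142a-5p had 1 and 0 against 21 and 22. miR-122-5p of liver and miR-142a-3p were at 0 but share bases with an opposite-strand entry, so they were not measured. Where bovine miRNAs of the serum have the mouse sequence, their reads cannot be told apart. Entries that may be fragments of other RNA, found for 11 of 21 listed names, took 0.211% and 0.321% of counts in WT and 0.654% and 0.701% in damaged. Of their 11 rows 10 were tested and 1 was at 0. Of the 10, 3 were called higher and 2 lower, against 4.1% and 5.41% of all tested rows. The shares of the muscle markers and of these entries were higher in both damaged libraries, as that of the members was, and their part in the result was not tested.

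**Figure D4:**
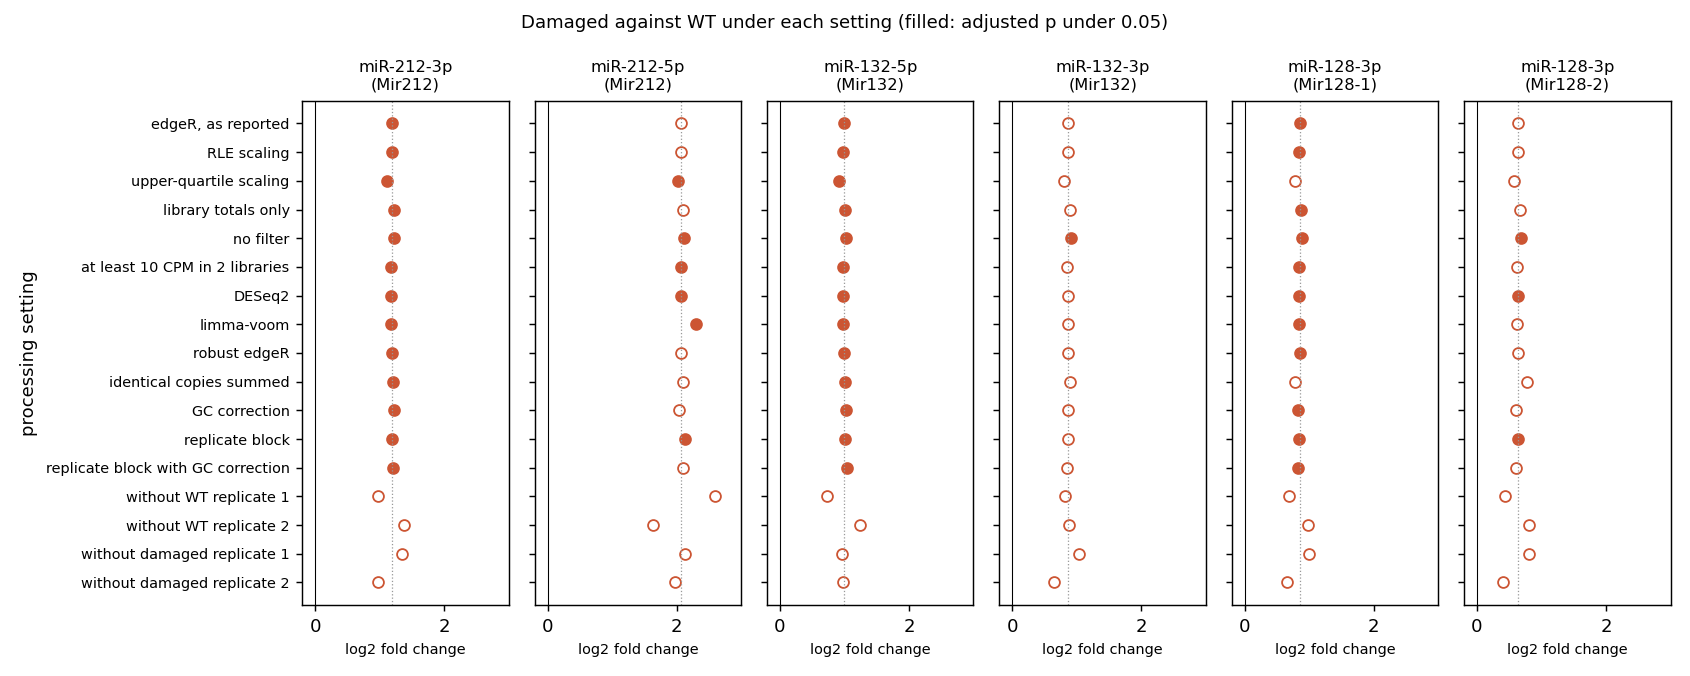
Log2 fold change of damaged against WT for 6 member rows under each processing setting, filled where the adjusted p was under 0.05. miR-212-3p and miR-132-5p are filled in all 13 settings on 4 libraries, and none of the 6 rows is filled when 1 library is left out.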

How the data were processed

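The deposited table gives raw counts for each mature miRNA in 4 libraries. Per the file headers, featureCounts 2.0.1 counted features of type miRNA by ID, with no option for strand, multi-mapping reads or overlapping features. Reads of a miRNA and of an opposite-strand entry therefore cannot be told apart. FastQC, BWA and the build mm10 come from the submitters' processing notes. The sources used here do not give the read trimming or the miRBase version.

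Rows were named by position from RefSeq (GRCm38.p6; 1734 of 2110 rows) and otherwise from the GENCODE vM21 hairpin. edgeR 4.0.16 (R 4.3.3) was run with TMM scaling, filterByExpr at a minimum count of 10 and group as the only term; a threshold of 0.05 was put on the Benjamini-Hochberg adjusted p over 536 rows. The SE is the size of the log2 fold change divided by the square root of F. Arm ratios used limma 3.58.1 with a pseudocount of 0.5. Intervals are Clopper-Pearson and, like floors, cover counting error only. The scripts were tested on simulated data. There edgeR called 61.4% of rows simulated with a log2 fold change of 1 in size, and 1.31% of unchanged rows. limma called 36.2% of changed arm ratios and none of the unchanged ones. A row or ratio that was not called may thus still have changed. Alternatives were RLE, upper-quartile or no scaling, other filters, DESeq2 1.42.0, limma-voom, robust edgeR, summed copies, a GC correction, a replicate block and leaving out each library. The members and lists were chosen with earlier results of these data known. All member rows are named; other rows follow from the lists and from likeness to the 3 most abundant members.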

Additional observations from a re-analysis of the deposited data

How the results depend on the processing

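In 12 other settings on 4 libraries, miR-212-3p and miR-132-5p passed in all 12. The Mir128-1 row of miR-128-3p failed in 2 of them, upper-quartile scaling and summed copies. The correction for GC content kept 3 member calls. Over all rows there were 51 calls by edgeR, and 77 with upper-quartile scaling, 131 without a filter, 91 at 10 CPM or more in 2 libraries, 109 by DESeq2 and 79 by limma-voom. Member calls were 6 without a filter and 5 by DESeq2 in place of 3. The replicate block gave 127 calls, 56 of them higher, and 5 member calls (69 and 3 with the GC correction). The replicate numbers share no stated origin, and differences between replicates 1 and 2 correlated at 0.0032 between the groups over 536 rows, so the numbers were not taken as pairs.

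With 1 library left out, edgeR called 0 to 30 rows (103 to 144 at an unadjusted p under 0.05) and 0 member rows. The 30 came without damaged replicate 2, and the other 3 fits gave 0. Some log2 fold changes near 0 changed sign over these fits: miR-128-1-5p ran from -1.29 to 0.13, miR-129-5p from -0.32 to 0.069 and the Mir138-2 row of miR-138-5p from -0.16 to 0.36, with -0.043 between. Arm ratios called were 1 with a pseudocount of 5 and 3 with both arms at a mean of 100 counts or more. No member hairpin was among them, but at 100 counts or more Mir132 was the only member hairpin fitted. Over the fits with 1 library left out, the Mir132 ratio change ran from -0.068 to 0.37, that of Mir212 from 0.24 to 1.60 and that of Mir138-2 from -0.82 to 0.24. That of Mir128-1 ran from -2.21 to -0.65. The cause of these changes was not tested. The summed member level kept its direction in all 6 alternatives, with a log2 difference of 0.66 to 0.97. Depth limits the rows of 20 reads or fewer in WT, miR-212-5p among them.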

Other observations

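Rows outside the set were compared with its 3 most abundant members by the distance between log2 CPM profiles, each centred on its mean over the 4 libraries, with copies summed and 272 mature IDs compared. Closest to miR-128-3p were miR-191-5p, miR-23a-3p, an abundant miRNA of myoblasts, and miR-125a-5p, at distances of 0.16, 0.21 and 0.22. Closest to miR-132-5p were miR-133a-3p, a muscle miRNA, miR-125a-5p and miR-125b-5p, at 0.25, 0.25 and 0.28. Closest to miR-212-3p were miR-125a-5p, miR-664-3p and let-7d-3p, at 0.23, 0.26 and 0.29. miR-125a-5p, the lin-4 homologue in mammals together with miR-125b-5p, was near all 3 members, with 765 and 952 CPM in WT and 1464 and 1868 CPM in damaged. Its copies-summed log2 fold change was 0.97 (edgeR adjusted p = 0.0433). With 4 libraries in 2 groups, any row that is higher in damaged by a like factor comes out close, so the distances describe these libraries only.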
